A study of Arabidopsis thaliana with 8 samples.

Results

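Shoots of Arabidopsis thaliana that lacked LHP1, BPC4 and BPC6 together were compared with shoots that lacked LHP1 alone, to measure what the loss of BPC4 and BPC6 changes once LHP1 is gone. The comparison used 4 of the 8 arrays of the series, chosen by the genotype in their titles. These were 2 arrays of lhp1-4 bpc4 bpc6, called the triple mutant here, and 2 arrays of lhp1-4. The same loss in the presence of LHP1 was measured with the other 4 arrays, 2 of bpc4 bpc6 and 2 of wild type, for comparison. All plants were Col-0 and untreated, and shoots were harvested at 18 days from a greenhouse kept at 20 °C, with 35% humidity and a day of 18 h. Each array held RNA from a pool of 6 plants. The labels call the replicates biological but do not say whether the pools were grown separately, so p-values measure the spread between pools. The labels name the lhp1-4 allele and give no allele for bpc4 or bpc6. A shoot is a mixture of cell types, so fewer cells of a type and less RNA per cell cannot be told apart.

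LHP1, a plant relative of animal heterochromatin proteins with a chromodomain, binds the histone mark laid down by Polycomb repressive complexes and keeps developmental genes silent. BPC4 and BPC6 belong to the BASIC PENTACYSTEINE family, plant transcription factors that recognise GAGA repeats in DNA. The series title states that BPC6 brings LHP1 to such repeats. Setting the triple mutant against lhp1-4 asks what the loss of BPC4 and BPC6 changes when there is no LHP1 to bring.

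Expression was read from probe sets, each a group of short array probes summarised into 1 intensity. The sources used here do not pair probe sets with genes, so results are given for groups of probe sets and for a few probe sets by identifier. For the same reason the transcripts of LHP1, BPC4 and BPC6 and the markers of shoot tissue were not analysed here, and the genotype and tissue labels were not checked against them. Of 22746 probe sets without controls, 22716 were tested. The level of 5007 of these was not settled, because deposited values between 3 and 10 can stand for dim signals or for signals 1000 times brighter, and levels below are given only for the 17709 probe sets whose level was settled. Median intensities of the 8 arrays lay between 54.7 and 58.3. The median log2 difference between replicates was 0.14 in the triple mutant, 0.10 in lhp1-4, 0.11 in bpc4 bpc6 and 0.15 in wild type. Triple mutant arrays correlated with lhp1-4 arrays at 0.990 to 0.991, against 0.994 between the triple mutant replicates and 0.997 between the lhp1-4 replicates.

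Losing BPC4 and BPC6 still changed transcript levels where LHP1 was absent, and most of the changes were increases. The triple mutant had 496 rises over lhp1-4, which is 2.18% of the probe sets tested, and 257 falls, which is 1.13%. A rise or fall is a probe set with a Benjamini-Hochberg adjusted p under 0.05 in limma, a linear model that shares the spread of all 8 arrays. The median log2 change was 0.91 among the rises, with quartiles of 0.71 and 1.27, and -0.69 among the falls, with quartiles of -0.87 and -0.56. Over all probe sets tested it was -0.01. The surplus of rises grew with the size of the change. At least 2-fold changes comprised 218 rises and 46 falls, at least 4-fold changes 35 rises and 4 falls, and at least 8-fold changes 4 rises and 0 falls. At a stricter adjusted p under 0.01 limma gave 101 rises and 23 falls. The number of calls depended on single arrays: 753 in all, it was 97 and 34 without lhp1-4 replicates 1 and 2, and 196 and 219 without triple mutant replicates 1 and 2. Rises made up 65.9% of calls, and 73.0% to 84.5% when 1 of these 4 arrays was left out. They made up 77.5% of 386 calls when only the triple mutant and lhp1-4 were in the model. In the brightest of 4 bins by wild type intensity, given below, rises made up 48.5% of the calls.

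**Figure D1:**
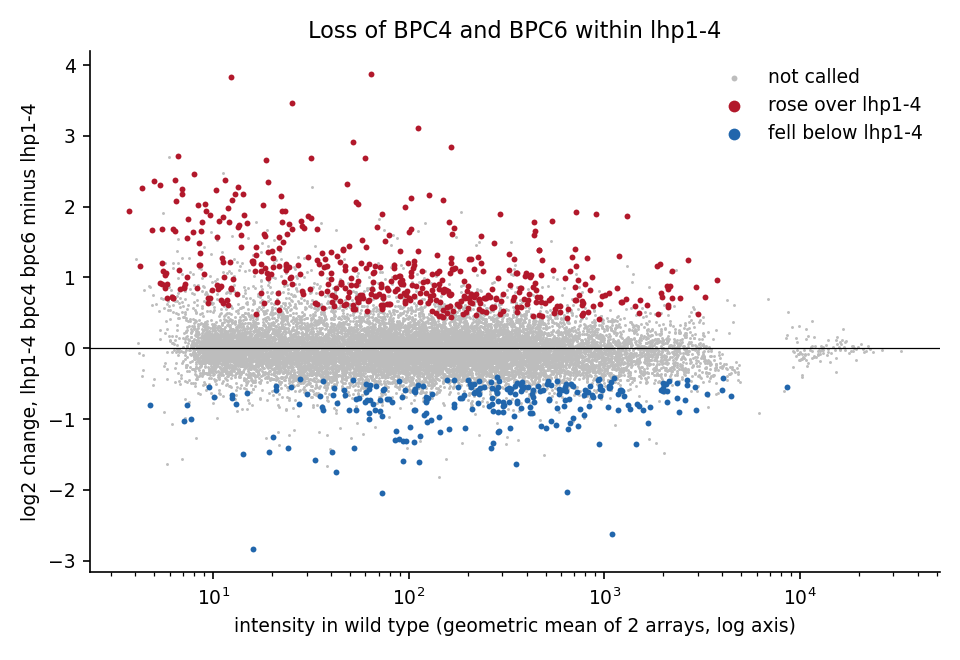
The log2 change between the triple mutant and lhp1-4 (vertical axis) is plotted against the intensity in wild type (horizontal log axis, geometric mean of 2 arrays) for the 17709 probe sets of settled level. Red points are the rises and blue points the falls; changes above 3 on the log2 scale occur only as rises, mostly at low wild type intensity.

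Both arrays of the triple mutant lay beyond both arrays of lhp1-4 in all 753 calls. The calls were chosen by the difference between these same arrays, which favours that count. Over all probe sets the triple mutant arrays were both above the lhp1-4 arrays in 21.3% and both below in 25.3%. Changes computed from separate pairs of arrays, replicate 1 of both genotypes and replicate 2 of both genotypes, were correlated over the 22716 probe sets (Pearson's r = 0.604, Spearman's rho = 0.466). The other pairing of the same 4 arrays gave r = 0.537 and rho = 0.361. These correlations describe probe sets of 1 comparison, which are not independent replicates.

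The largest rise was that of 253161_AT. Its intensity was 1766 and 1354 in the triple mutant arrays, against 133.7 and 83.8 in the lhp1-4 arrays. Both triple mutant values were far above both lhp1-4 values, and the log2 change was 3.87 ± 0.33 (SE of 2 arrays per genotype, adjusted p in limma = 0.00478). In bpc4 bpc6 the same probe set stood at 41.0 and 23.62, against 56.3 and 72.7 in wild type (adjusted p in limma = 0.173). By its mean it was lowest where LHP1 was present and BPC4 and BPC6 absent, and highest where all were absent. Without lhp1-4 replicate 2 the log2 change was 3.53 and the call was lost (limma adjusted p = 0.0504). On the values as deposited, before their scale was restored, the direction was the opposite, at -6.10.

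The second largest rise, 262373_AT, was bright in both triple mutant arrays and dim in the other 6. It had intensities of 187.7 and 194.9 in the triple mutant and 13.2 and 13.5 in lhp1-4. The log2 change was 3.84 ± 0.15 (limma SE, n = 2 arrays per genotype, adjusted p in limma = 0.00057). This is a 14.3-fold difference, with a 95% interval of 3.48 to 4.2 on the log2 scale. The bpc4 bpc6 arrays gave 12.01 and 13.87 and the wild type arrays 14.3 and 10.6, so that all 6 other arrays overlapped at a dim level. The change between bpc4 bpc6 and wild type was 0.07 on the log2 scale, with a 95% interval of -0.29 to 0.43.

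The largest falls followed different courses through the genotypes. Probe set 260471_AT had intensities of 40.6 and 32.2 in the triple mutant, against 275.1 and 241.3 in lhp1-4. Its log2 change was -2.83 ± 0.17 (limma SE, n = 2 arrays per genotype, adjusted p in limma = 0.00177). It was dim in the other genotypes, at 12.1 and 9.34 in bpc4 bpc6 and 16.4 and 15.6 in wild type. The high level of lhp1-4 was thus mostly, though not wholly, absent from the triple mutant.

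Probe set 252607_AT was bright in both genotypes with LHP1 and dimmest in the triple mutant. It had intensities of 59.4 and 64.2 in the triple mutant and 320.0 and 449.8 in lhp1-4. In bpc4 bpc6 it had 1294 and 2233, and in wild type 894.9 and 1335. The log2 change within lhp1-4 was -2.62 ± 0.31 (limma SE, n = 2 arrays per genotype, adjusted p in limma = 0.0107). The call was lost without any 1 of the 4 arrays compared, at limma adjusted p from 0.0558 to 0.0924.

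**Figure D2:**
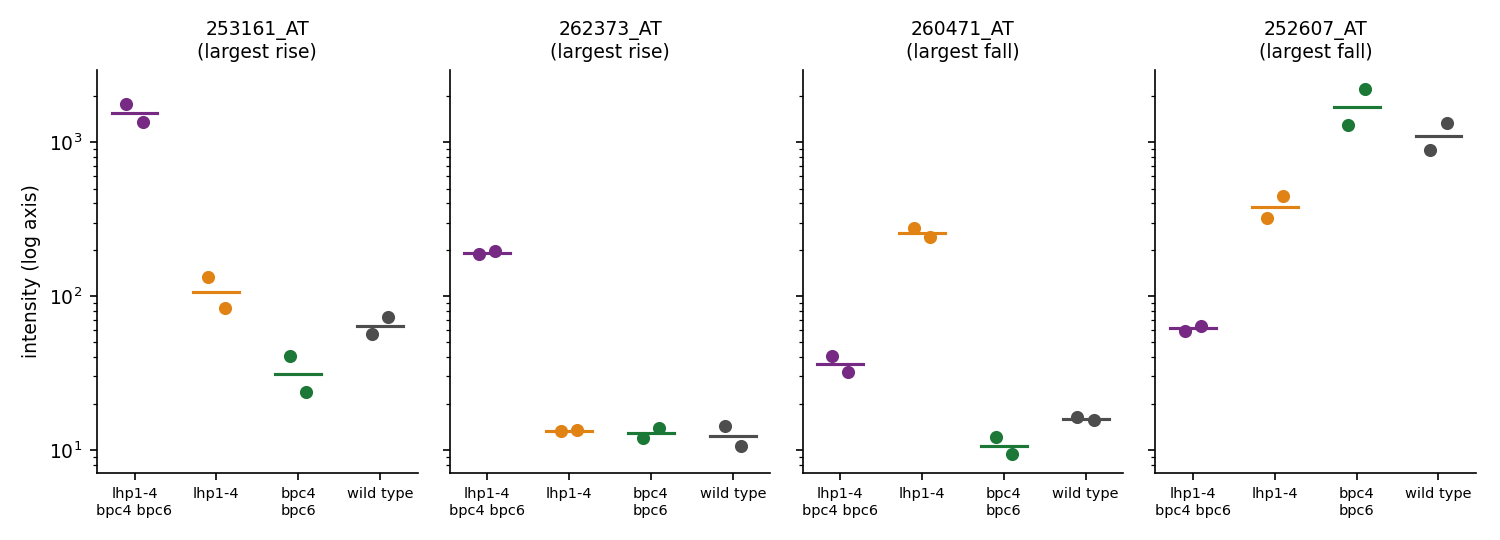
Intensity on a log axis is shown for every array (points) with the geometric mean of each genotype (bars) for the 2 largest rises and the 2 largest falls of the triple mutant against lhp1-4. In 262373_AT the triple mutant arrays stand at 187.7 and 194.9 and the other 6 arrays lie close together, while 260471_AT is highest in lhp1-4.

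Among probe sets of settled level, falls were less frequent where wild type was dim, while the frequency of rises varied less. The 5007 probe sets of open level, left out here, held 8 rises and 5 falls. The wild type arrays were not part of the comparison, so probe sets were divided into 4 bins of equal size by their wild type intensity. The bins were not wholly independent of the comparison, because a level was settled from the values of all arrays. A probe set very dim in wild type could count as settled because it was brighter in the triple mutant or lhp1-4. Such entries can add calls to the dimmest bin, and their part in its share of rises was not tested. In the dimmest bin, from 3.71 to 28.9, 138 of 4428 probe sets rose and 20 fell, which is 3.12% and 0.452%. In the next bin, up to 105, 130 rose and 50 fell, which is 2.94% and 1.13%. Between 105 and 292 there were 106 rises and 61 falls, which is 2.39% and 1.38%. In the brightest bin 114 rose and 121 fell, which is 2.58% and 2.73% of 4427. The share of rises among the calls was thus 87.3%, 72.2%, 63.5% and 48.5% from the dimmest to the brightest bin. Probe sets near the lowest intensities have little room to fall further, and the part of this in the shares was not tested. Called changes in both directions were larger where wild type was dim. On the log2 scale, rises had a median of 1.23 in the dimmest bin and 0.75 in the brightest. Falls had medians of -0.79 and -0.65 in the same bins. The median standard error was larger in the dimmest bin too, at 0.166 against 0.115 in the brightest. A larger standard error raises the size that a change needs for a call, and its part in these medians was not tested. The shares of rises and falls per bin are descriptions and were not tested. When probe sets of open level or with a mean intensity under 50 were left out before the fit, limma gave 621 rises and 498 falls, so that rises made up 55.5% of calls.

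Few calls fell in probe sets whose level was open. They held 8 of the 496 rises and 5 of the 257 falls, all under 2-fold. Probe sets in which some values had been scaled back up held 92 rises and 46 falls, or 18.3% of the calls, against 7.76% of the probe sets tested. By the suffix of their identifiers, 9 rises and 6 falls were of the S_AT kind, whose probes can match several related transcripts, and 0 rises and 1 fall were of the X_AT kind, which can cross-hybridise. Such probe sets numbered 934 and 126 of those tested.

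Across the 4 genotypes, the rises formed a series of levels. The 488 rises of settled level had a median intensity of 258 in the triple mutant, 125 in lhp1-4, 84.2 in bpc4 bpc6 and 85.8 in wild type. The 218 rises of at least 2-fold had medians of 224, 71.6, 32.9 and 37.1 in the same order of genotypes. For the 496 rises the log2 change had a median of 0.91 between the triple mutant and lhp1-4, 0.36 between lhp1-4 and wild type and -0.04 between bpc4 bpc6 and wild type. The first and second of these share the lhp1-4 arrays, which enter them with opposite signs. Both triple mutant arrays were above all 6 other arrays in 483 of the 496 rises, and in 12.2% of all probe sets. The choice of rises by their level over lhp1-4 favours that count.

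The falls were lowest in the triple mutant. The 252 falls of settled level had a median intensity of 128 in the triple mutant, 215 in lhp1-4, 267 in bpc4 bpc6 and 286 in wild type. Over all 257 falls the log2 change had a median of -0.69 between the triple mutant and lhp1-4, -0.30 between lhp1-4 and wild type and -0.08 between bpc4 bpc6 and wild type. Both triple mutant arrays lay below the other 6 arrays in 231 of the 257 falls, and in 16% of all probe sets. In the other 26 falls, such as 260471_AT, at least 1 array of bpc4 bpc6 or wild type reached as low as the triple mutant.

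**Figure D3:**
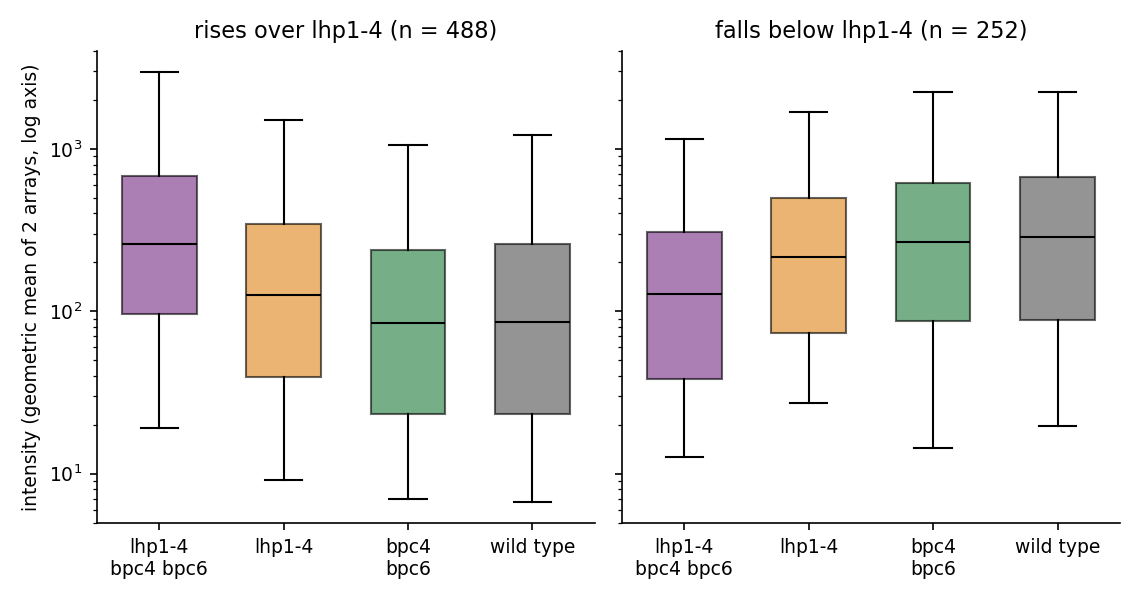
Boxes give the median and quartiles, and whiskers the 5 and 95 percentiles, of the intensity per probe set (geometric mean of 2 arrays, log axis) in each genotype for the 488 rises and 252 falls of settled level. For the rises the median is 258 in the triple mutant, 125 in lhp1-4, 84.2 in bpc4 bpc6 and 85.8 in wild type; for the falls it is 128 in the triple mutant, 215 in lhp1-4, 267 in bpc4 bpc6 and 286 in wild type.

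The loss of BPC4 and BPC6 was also measured where LHP1 was present. Against wild type, bpc4 bpc6 had 219 rises, 0.964% of the probe sets tested, and 191 falls, 0.841%. This comparison shares no array with that of the triple mutant and lhp1-4, and in the shared model both have the same standard error for a given probe set. Its 410 calls became 82 when bpc4 bpc6 replicate 1 was left out, 61 when replicate 2 was, and 41 when wild type replicate 1 was. Without wild type replicate 2 there were 380. Leaving out either array of lhp1-4 gave 64, and either array of the triple mutant 192. With bpc4 bpc6 and wild type alone in the model limma gave 0 calls, the smallest adjusted p being 0.0557, and 3139 probe sets at an unadjusted p under 0.05. Of the 753 calls within lhp1-4, 680, or 90.3%, had no call between bpc4 bpc6 and wild type, which held for 98.2% of all probe sets tested. Of the 410 calls between bpc4 bpc6 and wild type, 337, or 82.2%, had none within lhp1-4. Missing a call does not show that a probe set did not change.

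A minority of probe sets responded in both backgrounds, and nearly as many in opposite directions as in the same. Rises in both numbered 26, which is 5.24% of the rises within lhp1-4 and 11.9% of the rises over wild type. Their median log2 change was 0.94 within lhp1-4 and 0.97 over wild type. Falls in both numbered 13, or 5.06% and 6.81% of the lists of falls, with medians of -0.65 and -1.04. In 23 probe sets the triple mutant rose over lhp1-4 while bpc4 bpc6 fell below wild type, with medians of 0.84 and -0.91. In 11 the triple mutant fell and bpc4 bpc6 rose, with medians of -0.72 and 0.75. Set against the 0.964% and 0.841% of all probe sets with a rise or fall over wild type, the rises within lhp1-4 held 5.24% and 4.64%, and the falls 4.28% and 5.06%. Both comparisons use the same standard error for a given probe set, so a small one favours a call in both, in either direction. These shares were not tested.

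The levels of these groups differed. The 26 rises in both had median intensities of 200 in the triple mutant, 88.1 in lhp1-4, 67.5 in bpc4 bpc6 and 39.9 in wild type. The 23 that rose within lhp1-4 and fell against wild type had medians of 305 in the triple mutant, 189 in lhp1-4, 93.4 in bpc4 bpc6 and 172 in wild type. For the 13 falls in both the medians were 34.3 in the triple mutant, 75.2 in lhp1-4, 95.1 in bpc4 bpc6 and 207 in wild type. The 11 that fell within lhp1-4 and rose over wild type had 195 in the triple mutant, 324 in lhp1-4, 441 in bpc4 bpc6 and 287 in wild type.

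**Figure D4:**
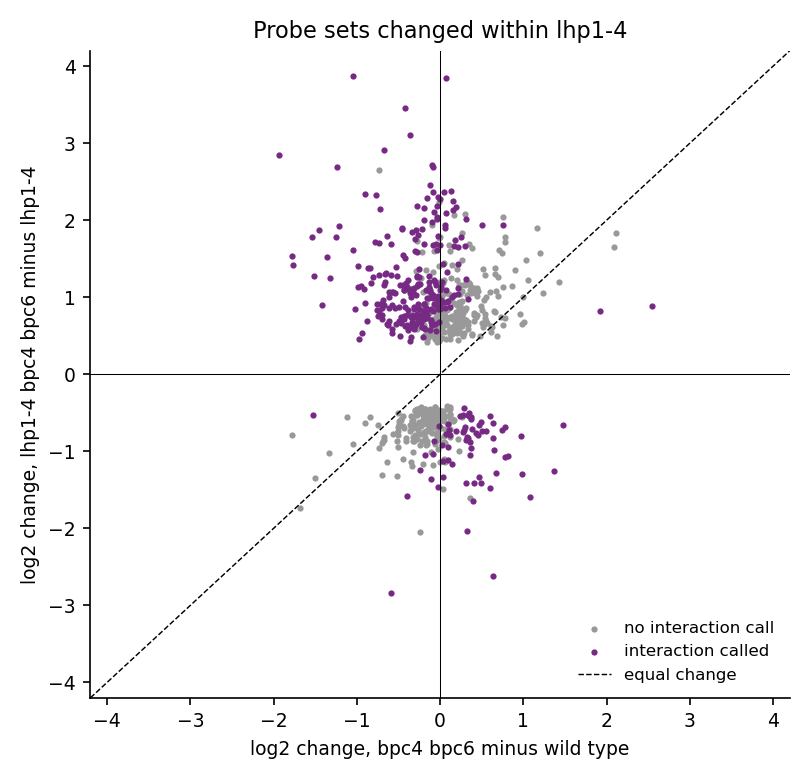
Each point is 1 of the 753 probe sets called between the triple mutant and lhp1-4, with that log2 change on the vertical axis and the log2 change between bpc4 bpc6 and wild type on the horizontal axis; purple points have an interaction call and the dashed line marks equal change. Most points lie near 0 on the horizontal axis, away from the dashed line.

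Whether the effect of losing BPC4 and BPC6 differed between the backgrounds was tested by the interaction, the log2 change within lhp1-4 minus the log2 change in the presence of LHP1. Over all probe sets it was positive in 349, or 1.54%, and negative in 180, or 0.792%. Among the 496 rises within lhp1-4 it was called in 246, of which 244 were positive and 2 negative. Among the 257 falls it was called in 67, of which 66 were negative and 1 positive. The change by which these probe sets were chosen is part of the interaction, which favours equal signs. The share with a call of the same sign was 38.1% for rises under 2-fold, 63.3% for rises of at least 2-fold and 85.7% for rises of at least 4-fold. For falls it was 19.0% under 2-fold and 56.5% at 2-fold or more. The change that sorts these groups by size is a term of the interaction, which favours a higher share among larger changes. These shares therefore do not show that larger changes depend more on the background. In 405 of the 753 probe sets neither the interaction nor the change between bpc4 bpc6 and wild type was called, so for these the data do not settle whether the backgrounds differ. The full fit gave 529 interaction calls, and the number depended on single arrays. There were 106 without replicate 1 of lhp1-4 and 23 without its replicate 2. Leaving out triple mutant replicate 1 gave 146 and replicate 2 gave 230. Leaving out bpc4 bpc6 replicate 1 gave 312 and replicate 2 gave 148, and leaving out wild type replicate 1 gave 160 and replicate 2 gave 401.

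Where the effect changed sign between the backgrounds, the interaction was called in every case: in 23 of the 23 probe sets that rose within lhp1-4 and fell below wild type, and in 11 of the 11 with the opposite course. Calls of opposite sign make a large difference, so this count follows largely from how the probe sets were chosen. Among the 26 rises in both it was called in 3 and among the 13 falls in both in 1. The largest positive interactions were those of 253161_AT, at 4.91 ± 0.46 with an adjusted p of 0.00821 in limma, and 267461_AT, at 4.78 ± 0.51 with an adjusted p of 0.0113 in limma (limma SE, n = 2 arrays per genotype). Probe set 267461_AT had intensities of 1046 and 1091 in the triple mutant, against 158.3 and 138.9 in lhp1-4. It had 67.2 and 27.6 in bpc4 bpc6, against 166.2 and 161.7 in wild type. Loss of BPC4 and BPC6 thus went with a 7.20-fold higher level in the absence of LHP1 and a 3.81-fold lower level in its presence, the second of which missed the threshold (limma adjusted p = 0.0555). The higher level lost its call without any 1 of the arrays of the triple mutant or lhp1-4 (limma adjusted p from 0.0643 to 0.119), and the direction was the opposite on the values as deposited, at -7.12. The log2 change between bpc4 bpc6 and wild type was -2.57 without bpc4 bpc6 replicate 1 and -1.29 without replicate 2. Each of these fits drops the difference between the bpc4 bpc6 arrays from the spread, so a smaller p there adds no support. The interaction call of 267461_AT was lost without lhp1-4 replicate 1 (limma adjusted p = 0.0511), lhp1-4 replicate 2 (0.0669) or wild type replicate 1 (0.0539), and that of 253161_AT without lhp1-4 replicate 2 (0.050). Both interactions have the opposite sign on the values as deposited, at -5.19 and -5.06.

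The largest negative interactions were those of probe sets that bpc4 bpc6 raised over wild type and that did not pass the test within lhp1-4. Probe set 260522_X_AT had intensities of 16.5 and 16.9 in the triple mutant, against 22.3 and 13.6 in lhp1-4, which overlap. It had 420.9 and 296.4 in bpc4 bpc6, against 39.6 and 28.6 in wild type, a 10.5-fold difference (limma adjusted p = 0.00733). The 95% interval of its log2 change within lhp1-4 was -0.73 to 0.60, its value without lhp1-4 replicate 1 was 0.30, and its interaction was -3.45 ± 0.40 (limma adjusted p = 0.0135). Probe set 245465_AT had 80.0 and 56.7 in the triple mutant, against 127.7 and 104.4 in lhp1-4, with a log2 change of -0.78 (limma adjusted p = 0.191). It had 70.4 and 115.8 in bpc4 bpc6, against 17.2 and 13.6 in wild type, a 5.90-fold difference (limma adjusted p = 0.0164) that lost its call without bpc4 bpc6 replicate 2 (0.0511) or wild type replicate 1 (0.0733). Its interaction was -3.34 ± 0.39 (limma adjusted p = 0.0136). The interaction call of 260522_X_AT was lost without triple mutant replicate 1 (limma adjusted p = 0.054). That of 245465_AT was lost without either lhp1-4 array or wild type replicate 1 (limma adjusted p = 0.0521 to 0.0669).

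Few individual calls within lhp1-4 held whichever array was left out. A fit without 1 array of a genotype leaves that genotype with a single array, assumed to vary like the others, and has fewer degrees of freedom. Calls held in all 8 fits for 27 rises and 4 falls. Those 27 rises had log2 changes of 1.2 to 3.84 with a median of 2.02, and a median of -0.02 between bpc4 bpc6 and wild type. By contrast 312 rises and 206 falls were called in none of the 4 fits without an array of the triple mutant or lhp1-4, and their median log2 changes were 0.75 and -0.63. Leaving out an array of bpc4 bpc6 or wild type changes only the estimate of the spread, and 318 rises and 116 falls were called in all 4 of those fits.

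**Figure D5:**
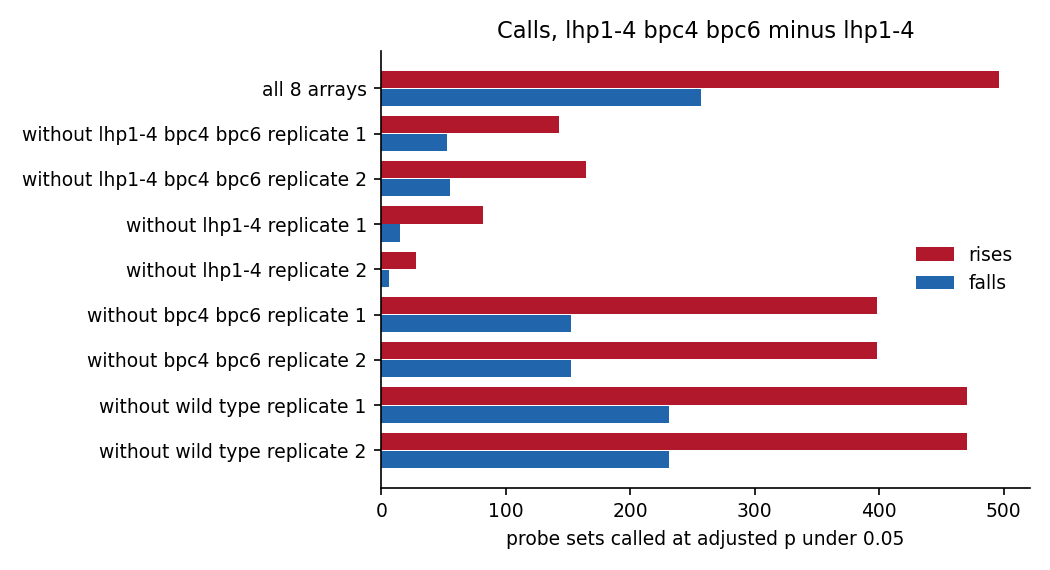
Bars give the number of probe sets called higher (red) and lower (blue) in the triple mutant than in lhp1-4 with all 8 arrays and without each array in turn. The number of rises exceeds that of falls in every fit, and the lowest counts, 28 rises and 6 falls, are those without lhp1-4 replicate 2.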

How the data were processed

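The deposited table holds 1 linear intensity per probe set and array, made by the authors with RMA, per the submitters' processing notes. Its version is not given in the sources used here, nor is the probe set definition. No deposited value reached 1000, and the values look as if any intensity from 1000 upward had been divided by 1000 before deposit, which the labels do not state. Values under 3, and values of 10 to 100 with 3 decimals, were multiplied by 1000. Other values of 10 or more were kept, unless under 100 and, once multiplied, within 5-fold of a scaled value of the probe set. Values from 3 to 10 were read at the scale within 5-fold of a settled value of the probe set. This was done only where the other scale was at least 20-fold away. Values were scaled in 1763 probe sets, 30 undecided probe sets and 1 control were left out, and 5007 probe sets with all values from 3 to 10 were tested as they stood. Before this step 805 of the probe sets tested differed by over 100-fold between arrays, and afterwards 1 did. Part of this drop follows from the rule, which reads some values by their closeness to other arrays.

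log2 values of these intensities, with no pseudocount and no further normalization, were fitted in limma 3.58.1 under R 4.3.3 with 1 mean per genotype over all 8 arrays, which gave 4 residual and 2.85 prior degrees of freedom. Adjusted p-values (Benjamini-Hochberg) cover all probe sets of a contrast. Figures used matplotlib 3.10.9. Precision is limited by the number of arrays, with a median standard error of 0.13 for a log2 change. The fit and the restoration were run on simulated data as checks of the code. The restoration was simulated from probe sets of settled level, stored in the assumed form, so it could not test whether that form is right. Probe sets of open level were not simulated there. The simulated fit had independent noise in each array. The comparison, the lists and the tests were chosen with earlier results of these data known. Named probe sets are the 2 largest rises and falls and the 2 largest interactions of each sign among those called; the planned naming of 15 a direction with their genes, the gene lists and the search of promoters for GAGA repeats were not run, since probe sets are not paired with genes here.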

Additional observations from a re-analysis of the deposited data

Results flagged for a closer look

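Limma's interaction test for a different effect of losing BPC4 and BPC6 with and without LHP1 gave a call in 246 of the 496 rises and 67 of the 257 falls of the triple mutant against lhp1-4, and in 2.33% of all probe sets. The change that chose these rises and falls is a term of the interaction, which favours such calls, and without lhp1-4 replicate 2 the interaction calls over all probe sets were 23 and not 529. Among the probe sets named, the interaction was positive in 253161_AT (4.91), 267461_AT (4.78) and 262373_AT (3.77). It was negative in 260522_X_AT (-3.45), 245465_AT (-3.34), 252607_AT (-3.26) and 260471_AT (-2.24). The interactions of 262373_AT, 260471_AT and 252607_AT had limma adjusted p = 0.00487, 0.011 and 0.019, with n = 2 arrays per genotype. The call of 260471_AT was lost without lhp1-4 replicate 1 or 2 (limma adjusted p = 0.053 and 0.0521). That of 252607_AT was lost without either array of the triple mutant or of lhp1-4 or wild type replicate 1 (0.0606 to 0.096), and its sign was the opposite on the values as deposited, at 1.73. Groups of 2 arrays are too small to look for single outlying arrays.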

How the results depend on the processing

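The 753 calls of the triple mutant against lhp1-4 ranged from 34 to 701 without each array in turn and were 386 with these genotypes alone in the model. The other settings tried (values as deposited, centring, quantile normalization, the filter on dim probe sets, array weights, an intensity trend, and, added after seeing the data, only probe sets without scaled or open values) gave 621 to 1119. The 529 interaction calls ranged from 23 to 401 without each array and from 438 to 774 in the other settings. The 410 calls of bpc4 bpc6 against wild type ranged from 41 to 380 without each array. They were 774 with the filter, 161 with array weights and 0 with these genotypes alone in limma (3139 at an unadjusted p under 0.05). With each array centred, 263 probe sets rose and 322 fell in bpc4 bpc6, a share of rises of 45.0% against 53.4%.

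On the values as deposited several signs of named probe sets turned and so rest on the restored scale. Within lhp1-4 the change was -6.10 for 253161_AT and -7.12 for 267461_AT. The interaction was -5.06 for 253161_AT, -5.19 for 267461_AT and 1.73 for 252607_AT, the last without a call (limma adjusted p = 0.871). Between bpc4 bpc6 and wild type 252607_AT gave -4.35. Changes that had no call also turned: 260522_X_AT within lhp1-4 ranged from -0.42 to 0.30 over the fits that each left out 1 array (0.30 with lhp1-4 replicate 1 left out), and 262373_AT between bpc4 bpc6 and wild type ranged from -0.15 to 0.28, with -0.15 when wild type replicate 2 was left out and -0.04 when bpc4 bpc6 replicate 2 was. The settings for changes between bpc4 bpc6 and wild type of named probe sets were added after seeing the data. With the sign kept, calls of named probe sets were lost in 29 combinations of probe set, comparison and setting and gained in 6, all 6 for 267461_AT between bpc4 bpc6 and wild type. The losses were in fits without 1 array, except 252607_AT within lhp1-4 on the values as deposited (limma adjusted p = 0.764) and, with bpc4 bpc6 and wild type alone in the model, 260522_X_AT and 245465_AT (0.0778 and 0.108).

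Replicate numbers are shared by the genotypes, but the labels do not say that they mark a common batch. The correlation of same-numbered deviations was 0.11 between the triple mutant and lhp1-4, 0.21 between bpc4 bpc6 and wild type, and -0.18 to 0.23 over all pairs of genotypes. With the replicate block there were 788 calls within lhp1-4, 630 of them shared with the fit without it, 566 interaction calls and 470 calls between bpc4 bpc6 and wild type. The gene-level and promoter alternatives were not run.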
